A study of Rattus norvegicus with 6 samples.

Results

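The protamines, the transition proteins and 4 chromatin regulators that act with them were examined in rat testis. They were taken as the rows of the deposited gene table whose symbol is Prm1, Prm2, Prm3, Tnp1, Tnp2, Brdt, Chd5, Rnf8 or Cdyl, and each symbol gave 1 row, so that 9 of 35291 genes were followed. RNA-Seq was performed on testes of 6 adult male Sprague-Dawley rats. The 3 diabetic (DM) rats had been fed a high-fat diet, were then given a single intraperitoneal dose of streptozotocin (STZ, a toxin of the insulin-producing beta cells) at 35 mg/kg, and were sampled 8 weeks later. The 3 non-diabetic (ND) rats, labelled normal, had received citrate buffer. The sources used here do not state whether the ND rats had the same diet, so the effect of the diet and that of STZ cannot be told apart. Nor do they state the ages of the rats in numbers.

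In the last phase of sperm formation, the spermatid replaces almost all of its histones. Histones are first acetylated and ubiquitylated, transition proteins then occupy the DNA for a short time, and protamines, small arginine-rich proteins, finally pack it into the condensed sperm nucleus. The mRNAs of protamines and transition proteins are made in round spermatids, stored, and translated later in elongating spermatids. A changed balance between protamine 1 and protamine 2 is a known feature of some infertile men and mice, and rat sperm are known to hold little protamine 2.

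Prm1, Prm2, Prm3 and Tnp2 lie side by side on chromosome 10 in the rat RefSeq annotation (assembly GRCr8), in this order. A long non-coding RNA gene is listed between Prm3 and Tnp2 and overlaps Tnp2. Tnp1 lies apart on chromosome 9. RefSeq promoters matched by symbol for 8 of the 9 genes, all but Prm2. The 200 bases before the annotated start are shown for the 4 protamine and transition protein genes that matched, because binding of the spermatid activator CREM to cAMP response elements is a known step in switching on genes of this kind. Each is written 5′ to 3′ on the strand of the gene. Capitals mark the octamer TGACGTCA, the cAMP response element, with up to 1 mismatch on either strand, and TATAA, the core of a TATA box, on either strand. No marked matches overlap.
Prm1 (chr10:5378540-5378739, plus strand): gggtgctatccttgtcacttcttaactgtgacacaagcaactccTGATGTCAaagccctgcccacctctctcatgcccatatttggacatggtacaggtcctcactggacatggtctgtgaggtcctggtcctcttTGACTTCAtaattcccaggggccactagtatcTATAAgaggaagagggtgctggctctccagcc
Tnp1 (chr9:82044279-82044478, minus strand): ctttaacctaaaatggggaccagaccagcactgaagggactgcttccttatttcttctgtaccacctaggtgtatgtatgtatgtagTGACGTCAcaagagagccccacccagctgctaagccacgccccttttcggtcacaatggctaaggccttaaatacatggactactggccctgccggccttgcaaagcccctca
Tnp2 (chr10:5386535-5386734, plus strand): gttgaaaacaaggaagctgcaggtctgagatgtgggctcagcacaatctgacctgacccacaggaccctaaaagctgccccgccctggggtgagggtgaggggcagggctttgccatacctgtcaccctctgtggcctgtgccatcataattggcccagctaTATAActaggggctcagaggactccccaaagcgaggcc
Prm3 (chr10:5384194-5384393, plus strand): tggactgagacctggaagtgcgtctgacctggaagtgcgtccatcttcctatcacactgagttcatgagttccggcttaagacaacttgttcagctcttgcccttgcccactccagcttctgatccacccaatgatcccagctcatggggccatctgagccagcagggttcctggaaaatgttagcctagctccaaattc

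Tnp1 carried the exact octamer, 113 bases before its start, and 1.46% of the 33469 promoters searched over the same 200 bases held it. Prm1 carried 2 octamers within 1 mismatch, which begin 156 and 64 bases before its start, and 10.6% of the promoters held at least 1 such octamer, exact matches included. TATAA stood 32 bases before the start of Prm1 and 38 bases before that of Tnp2, and in 19.7% of all promoters. None of these letters occurred in the window of Prm3, nor in those of Brdt, Chd5, Rnf8 and Cdyl. These matches describe the sequence, and no binding was measured.

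Levels are given as FPKM, calculated by the authors, a unit that scales the fragments counted for a gene to transcript length and sequencing depth. Column totals ran from 453304 to 478211 FPKM. The number of reads is not given, but at low genes a small number of fragments gives recurring ratios between any pair of libraries. Read from these ratios, the depth relative to the mean of the 6 libraries was 0.966 to 1.09 in the DM rats and 0.893 to 1.02 in the ND rats, so that no group was sequenced more deeply throughout. How the authors corrected FPKM for transcripts about as short as the sequenced fragments, as those of the protamines and transition proteins are, is not given in the sources used here, so the distances between these genes and the longer ones are less certain than the comparisons of each gene between rats.

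The protamine and transition protein mRNAs stood among the most abundant of the testis. Prm1 took rank 1 to 6 of 35291 genes in the 6 libraries, Tnp1 rank 6 to 11 and Tnp2 rank 8 to 16. Prm2 followed at rank 71 to 107 and Prm3 at rank 275 to 354. These 5 genes together held 1.70%, 2.05% and 1.95% of all FPKM in the DM rats and 1.62%, 1.86% and 2.24% in the ND rats, so that the lowest and the highest share were both found in ND rats. The regulators were lower, with Cdyl at rank 570 to 697, Brdt at 894 to 998, Chd5 at 1812 to 2197 and Rnf8 at 7638 to 8167.

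By mean FPKM the order was Prm1, Tnp1, Tnp2, Prm2, Prm3, Cdyl, Brdt, Chd5 and Rnf8. In this order every gene exceeded the next in 6 of 6 rats with separate ranges, except Tnp1 and Tnp2, whose ranges overlapped and where Tnp1 was higher in 4 of 6 rats. The widest steps, as geometric means of the within-rat ratio, were 5.98 between Chd5 and Rnf8 and 4.63 between Tnp2 and Prm2. The narrowest step with separate ranges was 1.40, between Cdyl and Brdt.

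**Figure D1:**
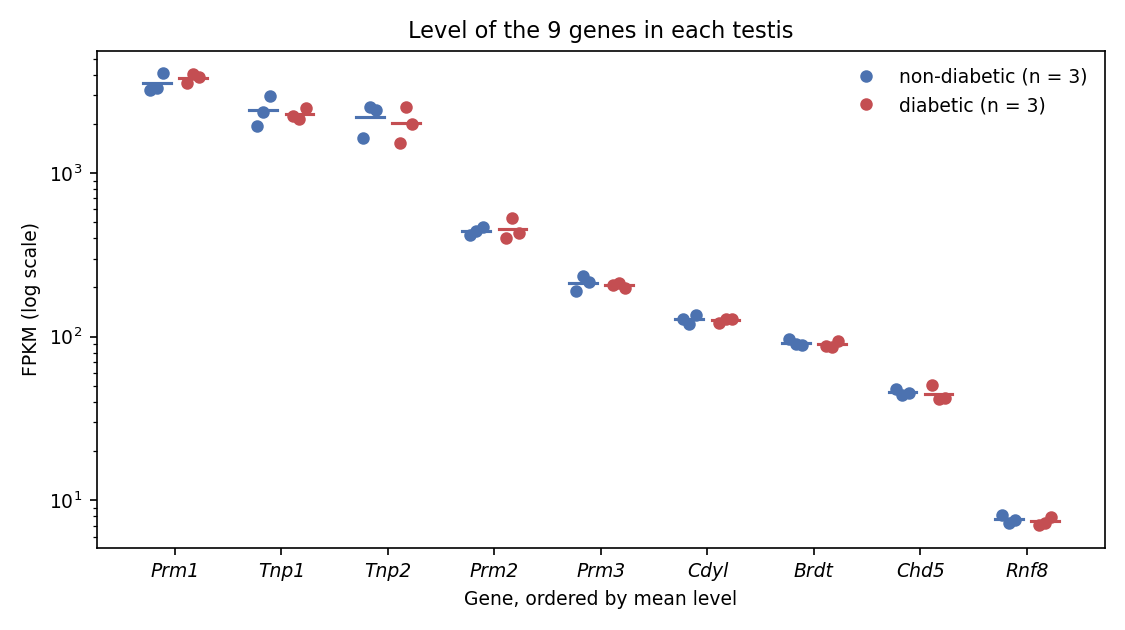
FPKM on a log axis for the 9 genes in each of 3 non-diabetic (blue) and 3 diabetic (red) testes, with a horizontal line at each group mean, genes ordered by mean level. Blue and red points overlap for every gene, from Prm1 with group means of 3539 and 3826 FPKM down to Rnf8 with 7.69 and 7.43 FPKM.

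To ask whether these mRNAs differed between DM and ND testes, limma was fitted to log2(FPKM + 0.1) of the 20338 genes whose average reached 0.5 FPKM, and all 9 genes passed this filter. None of the 9 passed the test. By limma, 0 of 9 had an adjusted p-value below 0.05, and 0 of 9 had an unadjusted p-value below 0.05, which 7.46% of all genes tested reached. The adjusted threshold was reached by 0.0344% of all genes tested, or 7 genes. The groups overlapped for 9 of 9 genes, while 13.0% of all genes tested had separate groups. Adjusted p-values of the 9 genes from limma ran from 0.872 to 0.976, and exact two-sided permutation tests gave p = 0.4 to 0.9, where 0.1 is the smallest that 3 rats against 3 can reach. The estimate was above 0 for 2 of the 9 genes and below 0 for 7, with a median log2 fold change of -0.042 beside -0.021 over all genes tested.

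These values also show how large a change in FPKM could have gone unseen. The 95% confidence intervals from limma for the DM to ND ratio lay between 0.641 and 1.32 for all 9 genes. They were narrowest for Brdt, at 0.882 to 1.08, and for Cdyl, at 0.887 to 1.09, and widest for Tnp2. Because whole testis was sequenced, fewer spermatids and less mRNA per spermatid cannot be told apart, and opposite changes of both would not be seen. FPKM is also relative to all RNA of a library, so a loss of spermatid mRNA along with the rest would leave it unchanged. The paper reports reduced spermatogenesis by histology in all DM testes, and its relation to these values was not tested.

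**Figure D2:**
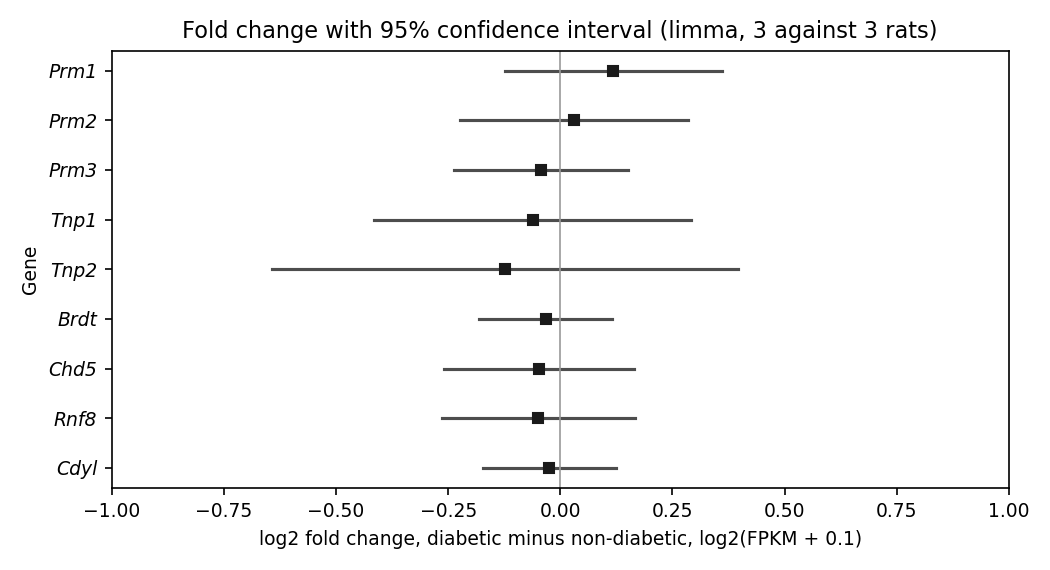
Log2 fold change, diabetic minus non-diabetic, of the 9 genes on log2(FPKM + 0.1), as squares with 95% confidence intervals from limma (3 against 3 rats). All 9 intervals include 0, and that of Tnp2, from -0.64 to 0.40, is the widest.

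Prm1, which encodes the protamine found in sperm of all mammals, was at 3561, 4049 and 3869 FPKM in the DM rats and at 3227, 3316 and 4072 FPKM in the ND rats. The highest and the lowest value both belonged to ND rats. Group means of 3826 ± 247 and 3539 ± 465 FPKM (SD, n = 3 per group) gave a log2 fold change of 0.12 ± 0.10 (SE; limma adjusted p = 0.872). The difference was larger without ND replicate 3. In that fit the remaining 2 ND rats lay below all DM rats, the log2 fold change was 0.22, the unadjusted p-value from limma was 0.0298 and the adjusted 0.634.

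Prm2, which encodes a protamine that is made as a precursor and trimmed on the DNA, was at 400.4, 532.3 and 429.5 FPKM in the DM rats and at 418.4, 440.5 and 466.4 FPKM in the ND rats. DM replicates 1 and 2 gave the lowest and the highest of the 6 values, so that the ND rats lay inside the range of the DM rats. Group means of 454 ± 69.3 and 442 ± 24.0 FPKM (SD, n = 3 per group) gave a log2 fold change of 0.030 ± 0.11 (SE; limma adjusted p = 0.976).

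Prm3, which lies in the same cluster but encodes an acidic protein and not a DNA-packing protamine, was at 208.2, 212.3 and 198.5 FPKM in the DM rats and at 189.8, 234.3 and 215.4 FPKM in the ND rats. Here the DM rats lay inside the range of the ND rats. The log2 fold change was -0.042 ± 0.083 (SE; limma adjusted p = 0.949).

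The ratio of Prm1 to Prm2 mRNA was 8.89, 7.61 and 9.01 in the DM rats and 7.71, 7.53 and 8.73 in the ND rats. Each group held rats at the low and at the high end, and the groups overlapped. The mean ratio was 8.50 ± 0.777 in the DM rats and 7.99 ± 0.649 in the ND rats (SD, n = 3 each). The difference of 0.088 on the log2 scale was smaller than the spread between rats, 0.13 as the pooled SD (exact two-sided permutation test, p = 0.3). Over all 6 rats the coefficient of variation was 8.47%, against 10.0% for Prm1 and 10.5% for Prm2 alone.

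Tnp1, which encodes the smaller of the transition proteins, was at 2220, 2155 and 2512 FPKM in the DM rats and at 1944, 2360 and 2976 FPKM in the ND rats. The DM rats again lay inside the range of the ND rats. Group means of 2295 ± 189.9 and 2427 ± 519 FPKM (SD, n = 3 per group) gave a log2 fold change of -0.061 ± 0.15 (SE; limma adjusted p = 0.963).

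Tnp2, which encodes the zinc-binding transition protein, was at 1537, 2521 and 1995 FPKM in the DM rats and at 1631, 2534 and 2417 FPKM in the ND rats. It varied most of the 9 genes, with the highest value 1.65 times the lowest, and each group held both a low and a high rat. In both groups replicate 1 was the lowest and replicate 2 the highest. Group means of 2018 ± 492 and 2194 ± 491 FPKM (SD, n = 3 per group) gave a log2 fold change of -0.12 ± 0.22 (SE; limma adjusted p = 0.945).

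The ratio of Tnp1 to Tnp2 was 1.44, 0.855 and 1.26 in the DM rats and 1.19, 0.931 and 1.23 in the ND rats (exact two-sided permutation test, p = 0.8). In each group 1 rat had more Tnp2 than Tnp1. The ratio of Tnp1 to Prm1, a transition protein against the protamine that follows it, was 0.623, 0.532 and 0.649 in the DM rats and 0.602, 0.712 and 0.731 in the ND rats. Its means were 0.602 ± 0.0614 and 0.682 ± 0.0693 (SD, n = 3 each), and the groups overlapped (exact two-sided permutation test, p = 0.3). The difference of -0.18 on the log2 scale was larger than the spread between rats, 0.15 as the pooled SD. Of the ND rats, only replicate 1 lay within the DM range. For the 3 ratios computed, none of these unpaired tests of all 6 rats gave a p-value below 0.3, before any adjustment for 3 tests.

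**Figure D3:**
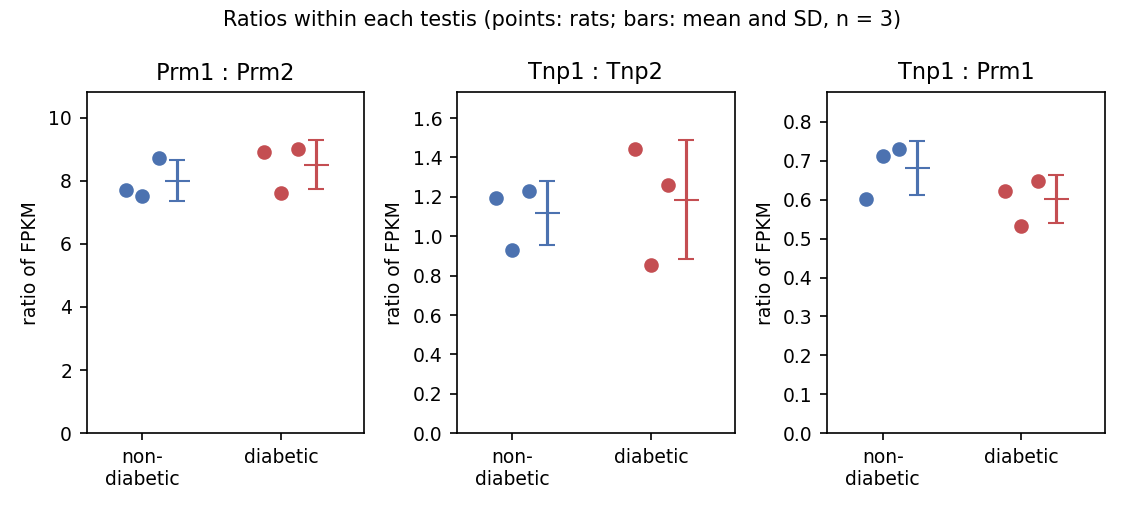
Ratio of FPKM within each testis for Prm1 to Prm2, Tnp1 to Tnp2 and Tnp1 to Prm1, with each rat as a point and the mean and SD (n = 3) beside it, on axes that start at 0. The groups overlap in each panel, and Prm1 exceeds Prm2 at least 7.53 times in every rat.

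Of the regulators, Brdt encodes the testis-specific bromodomain protein that binds acetylated histone H4 and is needed for histone removal. It was at 88.2, 86.4 and 94.5 FPKM in the DM rats and at 96.9, 90.0 and 88.4 FPKM in the ND rats. The values interleaved, and the log2 fold change was -0.033 ± 0.063 (SE; limma adjusted p = 0.948).

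Cdyl encodes a chromodomain protein that acts to limit crotonyl marks on histones in spermatids. It was at 121.8, 128.4 and 128.3 FPKM in the DM rats and at 128.7, 120.2 and 136.5 FPKM in the ND rats, so that all DM rats lay inside the ND range. The log2 fold change was -0.024 ± 0.063 (SE; limma adjusted p = 0.967).

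Chd5 encodes a chromodomain helicase that is needed for the exchange in spermatids. It was at 50.5, 41.4 and 41.9 FPKM in the DM rats and at 48.2, 44.1 and 45.5 FPKM in the ND rats. DM replicate 1 was the highest of the 6 rats and the other DM rats were the lowest. The log2 fold change was -0.047 ± 0.090 (SE; limma adjusted p = 0.948), and without DM replicate 1, when the groups no longer overlapped, it was -0.14 (limma adjusted p = 0.773).

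Rnf8 encodes a ubiquitin ligase that acts on histones at DNA breaks and in spermatids. It was at 7.03, 7.31 and 7.94 FPKM in the DM rats and at 8.16, 7.28 and 7.62 FPKM in the ND rats. The values interleaved, and the log2 fold change was -0.049 ± 0.091 (SE; limma adjusted p = 0.947).

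The 9 genes differed in how much they varied between rats of the same group. The residual SD on the log2 scale was 0.069 for Brdt, 0.072 for Cdyl, 0.085 for Rnf8 and 0.12 for Chd5, beside a median of 0.18 over all genes tested. It was 0.11 for Prm3, 0.15 for Prm1, 0.16 for Prm2, 0.23 for Tnp1 and 0.35 for Tnp2. Counted over all genes tested, Brdt was at percentile 9.55 of this SD and Tnp2 at percentile 79.2. The Tnp2 gene overlaps the long non-coding RNA gene of its cluster in RefSeq, and Chd5 and Cdyl each overlap another one. Whether the reads were counted by strand is not given in the sources used here.

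The machinery around these genes was followed with 64 further genes in 6 lists, of which 62 were found by symbol (all but Ube2b and Papolb) and all 62 were tested. By limma, 0 of 62 had an adjusted p-value below 0.05. An unadjusted p-value below 0.05 was reached by 1 of 62, or 1.61%, beside 7.46% of all genes tested. That gene was higher in the DM rats, and 2.47% of all genes tested reached this p-value in that direction. DM and ND values did not overlap for 8 of 62 genes, beside 13.0% of all genes tested. The log2 fold changes ran from -0.19 to 0.27, with a median of 0.029.

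Among the 8 histone variants, which include the testis linker histone H1f6 and the spermatid linker histones H1f7 and H1f9, none passed an unadjusted p-value of 0.05 and the log2 fold changes ran from -0.041 to 0.19. The lowest p-value belonged to H2ac1, the testis H2A listed as Hist1h2aa, at 174 ± 19.8 FPKM in the DM and 153 ± 20.3 FPKM in the ND rats (SD, n = 3 each; limma adjusted p = 0.810). Its partner, the testis H2B gene H2bc1, was the most abundant of the list, at 946 ± 72.6 FPKM and 928 ± 49.4 FPKM (SD, n = 3 each; limma adjusted p = 0.970).

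Of the 12 genes tested for histone acetylation, ubiquitylation and degradation, none passed. Kat5, the acetyltransferase of the NuA4 complex, had the lowest p-value. It was at 51.7 ± 2.95 FPKM in the DM and 47.7 ± 0.615 FPKM in the ND rats (SD, n = 3 each). The lowest DM rat, at 49.3 FPKM, lay above the highest ND rat, at 48.1 FPKM, and the difference was 0.11 on the log2 scale (limma adjusted p = 0.758). Of the 18 paralogs of Brdt, Chd5 and Cdyl and genes of the complexes they join, none passed, and Chd4, the helicase paralog of Chd5, had the lowest p-value, with a log2 fold change of 0.089 (limma adjusted p = 0.806).

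Of the 6 genes for the DNA breaks of spermatids and their repair, none passed. The repair scaffold Xrcc1 came closest, at 15.4 ± 1.90 FPKM in the DM and 12.7 ± 1.31 FPKM in the ND rats (SD, n = 3 each; limma adjusted p = 0.677). Of the 5 genes for protamine phosphorylation and its removal, none passed, and the lowest p-value was that of Srpk1, a kinase of protamine 1, with a log2 fold change of -0.067 (limma adjusted p = 0.902).

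Of the 13 genes tested that control transcription and translation of these mRNAs, Tarbp2 reached an unadjusted p-value of 0.0343 in limma, with an adjusted p-value of 0.649. It encodes an RNA-binding protein that mice need to translate the stored protamine mRNA. Its values were 5.61, 6.27 and 5.84 FPKM in the DM rats and 4.99, 4.42 and 5.20 FPKM in the ND rats, so that the groups did not overlap. The log2 fold change was 0.27 ± 0.11 (SE). With a rat left out in turn, the unadjusted p-value of Tarbp2 stayed below 0.05 only without DM replicate 1 (limma adjusted p = 0.704) and without ND replicate 3 (limma adjusted p = 0.636), and not without DM replicates 2 or 3 or ND replicates 1 or 2. In the same list, the activator Crem had a log2 fold change of -0.035 (limma adjusted p = 0.948) and the mRNA storage protein gene Ybx2 of -0.013 (limma adjusted p = 0.989).

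The cells that carry the exchange were followed with marker genes. The 8 markers of elongating spermatids, such as Odf1 and Oaz3, summed to 10951 to 11596 FPKM in the DM rats and 10551 to 11572 FPKM in the ND rats. None of them passed an unadjusted p-value of 0.05, and their median log2 fold change was -0.0095. The 8 markers of round spermatids summed to 945 to 1064 FPKM and 951 to 1049 FPKM, and none passed. Of the 8 spermatocyte markers 1 passed, beside 7.46% of all genes tested. It was Ccna1, which was higher in the DM rats (log2 fold change 0.17, limma adjusted p = 0.613), a call that was lost without DM replicate 1 or 2 and without ND replicate 1 or 3 (limma adjusted p = 0.716 to 0.892), and also when limma was run without a mean-variance trend (limma adjusted p = 0.695).

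In the same whole testes, 6 of the 7 Leydig cell markers tested were lower in the DM rats at an unadjusted p-value below 0.05. In this direction 4.99% of all genes tested reached it, and leaving out each rat in turn gave 5 to 6 of the markers. The 6 genes were Cyp17a1, Cyp11a1, Hsd17b3, Star, Insl3 and Lhcgr. The remaining marker tested had a log2 fold change of -0.016, and 1 of the 8 listed was not found by symbol. The 7 markers summed to 31.2 to 60.1 FPKM in the DM rats and 87.3 to 120.7 FPKM in the ND rats. Cyp17a1, a steroid synthesis enzyme, was the only gene of these lists with an adjusted p-value below 0.05 (log2 fold change -1.60, limma adjusted p = 0.0415). Its log2 fold change stayed between -1.71 and -1.43 with a rat left out, while the limma adjusted p rose to between 0.107 and 0.147 when any 1 of the 3 DM rats, or ND replicate 3, was left out. The limma adjusted p of Cyp17a1 was also above 0.05 with the replicate number as a block (0.186), with no filter on low values (0.0788) and without a mean-variance trend (0.0909), where Lhcgr passed instead (limma adjusted p = 0.0425). Lhcgr passed beside Cyp17a1 among protein-coding genes only (limma adjusted p = 0.0104) and with rows of the same symbol summed (limma adjusted p = 0.0465). Insl3 passed without DM replicate 3 (limma adjusted p = 0.0445). Of the other lists, Sertoli cell, peritubular and endothelial markers had 0 of 7, 0 of 5 and 0 of 3 tested genes past an unadjusted p-value of 0.05. Macrophage markers had 2 of 5, Cd68 and Csf1r, both lower, and spermatogonial markers 2 of 7, of which Uchl1 was higher and Kit lower. In either direction 7.46% of all genes tested passed. Of the 7 spermatogonial markers tested, 5 had a log2 fold change below 0 and 2 above 0, with a median of -0.17. With a rat left out in turn, Csf1r and Uchl1 stayed below 0.05 in each of 6 fits. Cd68 stayed below it only without DM replicate 2 or ND replicate 3, and Kit only without DM replicate 1. The sums of these lists in the DM and ND rats were 313 to 330 and 265 to 333 FPKM for Sertoli cells, 72.8 to 79.3 and 74.7 to 94.3 FPKM for peritubular cells, 5.39 to 6.05 and 5.83 to 7.09 FPKM for endothelial cells, 25.6 to 30.8 and 30.4 to 31.9 FPKM for macrophages, 69.8 to 81.1 and 66.3 to 69.8 FPKM for spermatogonia and 437 to 485 and 439 to 483 FPKM for spermatocytes. No marker found was at 0 in all rats, and the part of other cell types in the values of the 9 genes was not tested.

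**Figure D4:**
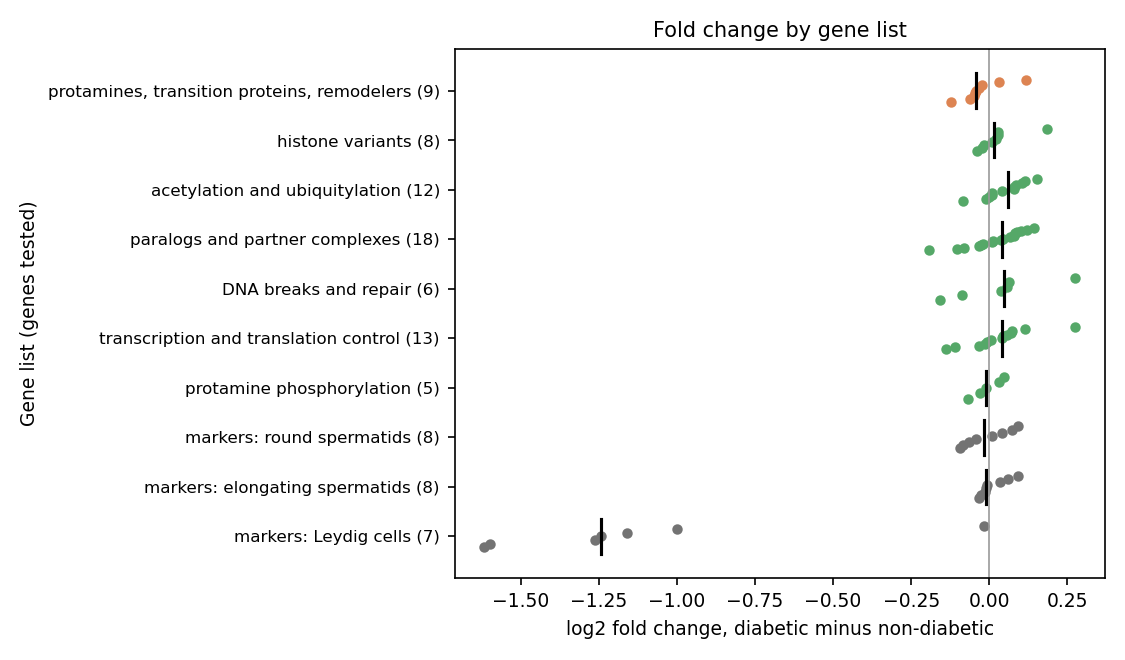
Log2 fold change, diabetic minus non-diabetic, of each gene tested (points) in the 9 genes (orange), the 6 lists of exchange machinery (green) and 3 lists of cell markers (grey), with the median of each list as a black bar and the number tested in brackets. Medians of the orange and green lists lie between -0.042 and 0.059, and that of the Leydig cell markers at -1.24.

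The genes whose values followed Prm1 most closely over the 6 rats, out of 6406 other genes with a symbol and a mean of at least 10 FPKM, were Zkscan5, Derl2 and Eloa. Their Pearson correlations with Prm1 on log2(FPKM + 0.1) were 0.972, 0.970 and 0.967 over 6 rats. They spanned 0.15, 0.15 and 0.12 on the log2 scale, against 0.34 for Prm1. With 6 points and 6406 genes this describes likeness in these libraries only, since the values share the same 6 libraries.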

How the data were processed

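The deposited table gives 1 FPKM value per gene and rat, as the authors calculated it. Total RNA of whole testis was sequenced as read pairs. The labels describe poly(A) selection but also poly(A)- or poly(A)+ fractions and non-coding RNA, so which RNA entered the libraries, and how fully mRNAs without a poly(A) tail were captured, is uncertain. Reads were checked with FastQC, compared with rRNA sequences with BWA and aligned with STAR, and transcripts were assembled with StringTie by the authors. Versions and the genome build are not given in the sources used here. The labels gave each rat's group and number.

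Differential expression was tested with limma 3.58.1 (lmFit, then eBayes with trend) under R 4.3.3 on log2(FPKM + 0.1), over all 20338 genes averaging 0.5 FPKM or more, two-sided, with Benjamini-Hochberg adjustment over all of them. The study's DESeq2 needs counts and was not run. Fold changes on this scale understate those of low genes. For ratios and single genes, exact permutation tests were run (Python 3.11.15, scipy 1.17.1). The limma fit was tested on simulated data with independent noise and known changes. These changes were larger than the estimates of the members, so the test does not show how well differences of that size are found. Nothing states that the rats of a group came from separate litters or days, so p-values set group differences against variation among these 6 rats and no wider one. In limma this variation is moderated over all genes tested. No library size in reads is known, and precision rests on 3 rats per group.

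The members, lists, tests and alternatives were chosen with earlier results of these data known. Every member is named. In each list of exchange genes those with an unadjusted p-value below 0.05 were named, or otherwise the 1 with the lowest, and so were the 3 genes most like Prm1. H1f6, H1f7, H1f9, H2bc1, Crem, Ybx2, Odf1, Oaz3 and the single marker genes were named beyond this rule, after their values were seen. Gene types, neighbours and promoters came from RefSeq (GRCr8). Alternatives are given in the closing section.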

Additional observations from a re-analysis of the deposited data

How the results depend on the processing

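Under 17 alternatives, 6 of which each left out a rat, the 9 genes gave 153 log2 fold changes, of which 0 reached an adjusted p-value below 0.05 in limma (the lowest was 0.634). The number of the 9 genes with an unadjusted p-value below 0.05 was 0 in all fits except that without non-diabetic replicate 3, so that leaving out a rat gave 0 to 1. The gene concerned was Prm1, with an adjusted p = 0.634 in limma. Besides Prm1 and Chd5, leaving out a rat also separated the groups for Brdt (without diabetic replicate 3), Cdyl (without non-diabetic replicate 2) and Prm3 (without non-diabetic replicate 1). All of these but Prm1 were then lower in the diabetic rats. The share of all genes with separate groups in these fits was not counted.

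The sign of the small log2 fold changes changed in 10 of the 153. With median-ratio scaling that of Cdyl was 0.0052. The other 9 came from leaving out a rat, which gave ranges of -0.090 to 0.12 for Prm2, -0.12 to 0.029 for Prm3, -0.21 to 0.097 for Tnp1, -0.32 to 0.058 for Tnp2, -0.071 to 0.0072 for Brdt, -0.14 to 0.0041 for Chd5 and -0.071 to 0.021 for Cdyl. Prm1 stayed at 0.056 to 0.22 and Rnf8 at -0.097 to -0.0059. The difference of the log2 ratio of Prm1 to Prm2 ranged from 0.045 to 0.17, that of Tnp1 to Prm1 from -0.27 to -0.094, and that of Tnp1 to Tnp2 from -0.097 to 0.28 with a rat left out. The cause was not tested.

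The number of the 62 exchange genes with an unadjusted p-value below 0.05 was 1, and 2 after rescaling to TPM, with median-ratio scaling and among protein-coding genes only, where Xrcc1 joined Tarbp2. It was 0 to 4 with a rat left out (0 without diabetic replicate 2 or without non-diabetic replicate 1, 4 without diabetic replicate 3), and Tarbp2 was among those genes in 2 of these 6 fits.

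Each group is numbered 1 to 3, with different animals under the same number. Deviations of same-numbered rats correlated at 0.106, 0.0153 and 0.0979 over genes, beside -0.126 to 0.0318 for rats of different numbers. Diabetic replicates 1 and 3 correlated best with their own number, and diabetic replicate 2 did not. The block lowered the SE of the log2 fold change of Tnp2 from 0.22 to 0.063 (limma adjusted p = 0.684 with the block), while that of Rnf8 rose from 0.091 to 0.098. With the replicate number as a block, 0 of the 9 genes had an unadjusted p-value below 0.05, 1 of the 62 exchange genes had (Xrcc1 in place of Tarbp2), the Leydig cell markers kept 6 genes with an unadjusted p-value below 0.05 but 0 with an adjusted one, against 1 without the block (Cyp17a1, limma adjusted p = 0.186 with the block), and the Prm1 to Prm2 ratio differed by 0.088 on the log2 scale (exact sign-flip permutation test, p = 0.25, the smallest possible). The corresponding values were 0.062 (p = 0.75) for Tnp1 to Tnp2 and -0.18 (p = 0.5) for Tnp1 to Prm1 in the same exact test. Precision was limited by 3 rats per group, and the depth in reads is unknown.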
